A study of Homo sapiens with 4 samples.

Results

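AHNAK and 8 other genes for exceptionally large human proteins were followed through 4 RNA libraries of MDA-MB-231, an established triple-negative breast cancer line. The others were AHNAK2, PLEC, FLNA, DYNC1H1, MACF1, DST, SPTAN1 and HUWE1. All 9 were found by symbol, each under a single gene identifier, among the 11288 genes listed in all 4 libraries. The set was chosen by name, for very long mRNAs. It was also selected on an earlier result of these data, the low level of AHNAK in 1 library, so that value is given here as a description.

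Each group was 1 library, so every difference describes these libraries, with no replicate error, and no test was possible. The si_NC library came from cells given a control silencer, and the si_LINC00882 library from cells in which the long non-coding RNA LINC00882 was knocked down. The input library is lysate RNA, and the PABPC1 pulldown library is RNA recovered from lysate with an antibody to PABPC1, which binds the poly(A) tails of mRNAs in the cytoplasm. All cells were grown in L15 medium with 10% fetal bovine serum, and the labels give no time or dose. LINC00882 itself was not analysed here, so its knockdown was not checked, and no library of an IgG control was analysed.

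The proteins of these genes tie the cell's filaments to one another and to membranes. AHNAK and AHNAK2 are repeat-rich scaffolds, AHNAK lying under the plasma membrane with the annexin A2 and S100A10 complex. Plectin (PLEC), MACF1 and dystonin (DST) are plakins, linkers of actin, microtubules and intermediate filaments. Filamin A (FLNA) crosslinks actin, and alpha-II spectrin (SPTAN1) pairs with beta spectrin in the membrane skeleton. DYNC1H1 is the motor subunit of cytoplasmic dynein, and HUWE1 is a ubiquitin ligase, so these last members are scaffolds only in a loose sense. Most of the AHNAK coding sequence lies in a single exon of unusual size.

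The levels are in FPKM, which divides the fragments of a gene by transcript length and by the mapped total of the library, a unit that allows levels of different genes to be set side by side. FPKM summed to between 197844 and 338894 per library, the number of sequenced fragments is unknown, and mitochondrially encoded mRNAs took 47.3% of the sum in input but 3.08% to 19.3% in the others. The cell line markers VIM, CD44, AXL, CAV1, ZEB1 and KRT18 were all listed in every library, VIM at 155 to 367 FPKM. Of the 7 markers of other breast or blood cell states, 2 were listed, ERBB2 at 1.67 to 6.68 FPKM and EPCAM at 2.24 to 10.5 FPKM. ESR1, PGR, CDH1, KRT5 and PTPRC were not listed under these symbols, so no levels are given.

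Start-region sequences are shown for AHNAK, the member whose level differed most between libraries, and for FLNA, the member with the highest level in si_NC. Each is the 250 bases before the gene's start in RefSeq, build GRCh38.p14, whereas the expression values were made on GRCh37. AHNAK is at chr11:62545827-62546076 and FLNA at chrX:154374635-154374884, both on the minus strand and written 5′ to 3′ along the gene. Capitals mark the GC box GGGCGG or its complement CCGCCC, the classical binding motif of Sp1, and, in FLNA, a CArG box, the motif of serum response factor.
AHNAK: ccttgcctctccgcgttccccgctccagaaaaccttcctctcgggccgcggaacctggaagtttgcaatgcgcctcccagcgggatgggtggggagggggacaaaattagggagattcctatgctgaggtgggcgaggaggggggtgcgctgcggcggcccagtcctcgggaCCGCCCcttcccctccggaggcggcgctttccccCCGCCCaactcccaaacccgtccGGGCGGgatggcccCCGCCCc
FLNA: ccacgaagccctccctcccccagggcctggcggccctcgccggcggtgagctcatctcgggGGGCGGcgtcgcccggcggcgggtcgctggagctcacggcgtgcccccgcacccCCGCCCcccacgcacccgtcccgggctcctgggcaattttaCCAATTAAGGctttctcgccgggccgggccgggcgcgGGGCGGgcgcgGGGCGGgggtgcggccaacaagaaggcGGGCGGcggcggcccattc

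The AHNAK stretch held 4 GC boxes and 22 CpG dinucleotides at 70% GC, and the FLNA stretch held 5 GC boxes, 35 CpG dinucleotides and 1 CArG box at 78.4% GC. Both strands were searched, and the 2 motifs did not overlap in either stretch. Of 27305 such stretches read, 1 per gene and chromosome 8 left out, 42.3% held a GC box and 1.14% a CArG box. Among the 9391 of genes listed in the deposited tables, 68.7% held a GC box and 1.00% a CArG box. Of the 8 members whose start regions were read, 7 had a GC box in the first start listed. PLEC, on chromosome 8, was not read. These matches are letters in a window and were not tested as binding sites.

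In the si_NC library the 9 genes ran from FLNA at 155 FPKM to AHNAK2 at 0.973 FPKM. AHNAK stood second, at 111 FPKM, and ranked 225 of 11695 listed genes. Below it came DYNC1H1 at 78.5 FPKM, PLEC at 69.8 FPKM, HUWE1 at 32.7 FPKM and SPTAN1 at 26.8 FPKM. DST at 13.2 FPKM and MACF1 at 12.6 FPKM were close neighbours in this order, and without replicates such neighbours cannot be ranked. The median of the 9 members was 32.7 FPKM in si_NC, where the median of all listed genes was 5.78 FPKM. In input the member median was 6.24 FPKM against 4.02 FPKM for all genes, so the members stood much nearer to the typical gene there.

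**Figure D1:**
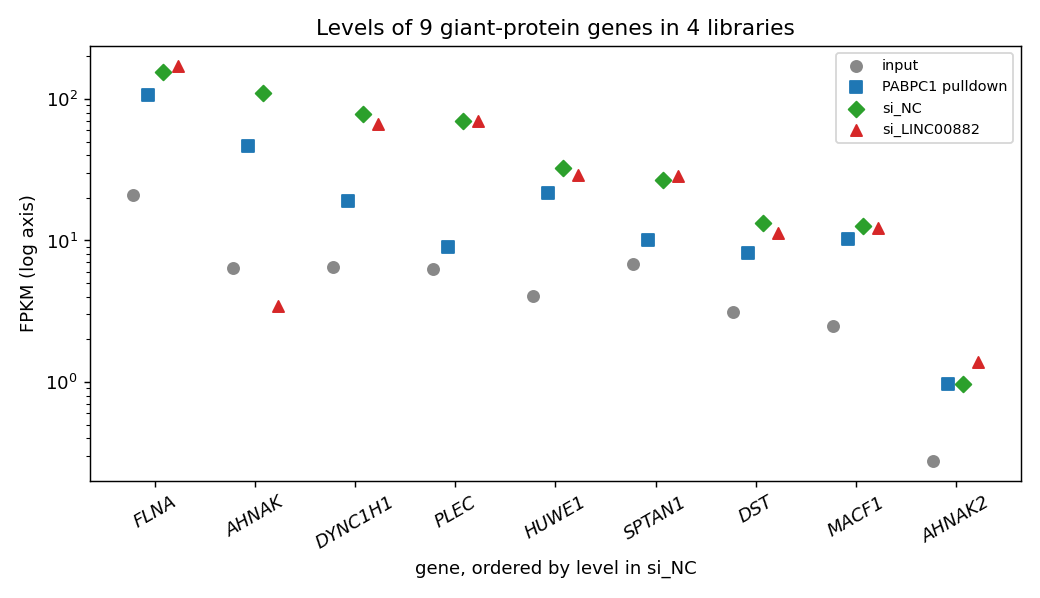
Level of each of the 9 genes (FPKM, log axis) in the 4 libraries, 1 point per library, with genes ordered by their si_NC level. AHNAK is the gene whose si_LINC00882 point (3.43 FPKM) lies far below its si_NC point (111 FPKM), and the input points are the lowest of the 4 for every gene but AHNAK.

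In the knockdown pair, AHNAK stood apart from every other member. It was listed at 111 FPKM in si_NC and 3.43 FPKM in si_LINC00882, a 32.4-fold difference between these 2 libraries, and its rank went from 225 to 7504 of 11695 genes. Its log2 ratio, taken throughout on FPKM plus a pseudocount of 1, was -4.66, the lowest of all 10478 genes compared. Over the input library, at 6.38 FPKM, AHNAK in si_LINC00882 had a log2 ratio of -0.74. With 1 library per group it cannot be told whether the si_NC or the si_LINC00882 level is the unusual one. In a bulk library, a lower level in every cell and the loss from a part of the cells cannot be told apart.

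The cytoskeletal linkers stayed near their control levels. PLEC was listed at 69.8 FPKM in si_NC and 69.4 FPKM in si_LINC00882, a log2 ratio of -0.01. MACF1 stood at 12.6 and 12.2 FPKM (log2 ratio -0.04), and DST at 13.2 and 11.3 FPKM (log2 ratio -0.22). For these plakins the levels of both transfected libraries were nearly the same.

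FLNA was at 155 FPKM with the control silencer and 172 FPKM with the LINC00882 silencer (log2 ratio 0.15), and SPTAN1 at 26.8 and 28.3 FPKM (log2 ratio 0.08). DYNC1H1 stood at 78.5 and 66.9 FPKM, a log2 ratio of -0.23, and HUWE1 at 32.7 and 29.2 FPKM, a log2 ratio of -0.16. AHNAK2, whose protein resembles AHNAK in its build, was slightly higher in si_LINC00882, at 1.37 FPKM against 0.973 FPKM (log2 ratio 0.27), and entered the comparison only through the first of these values. The 8 members other than AHNAK thus spanned log2 ratios from -0.23 to 0.27, inside the range from -0.33 to 0.33 that held the middle 80% of all genes.

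Of the 9 members, 1 was at or past 2-fold lower and none 2-fold higher in si_LINC00882. Over all genes 1.15% were 2-fold lower and 0.859% higher. AHNAK drew attention through this very comparison, so nothing is read from its count. The member median was -0.04, with -0.01 for all genes.

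**Figure D2:**
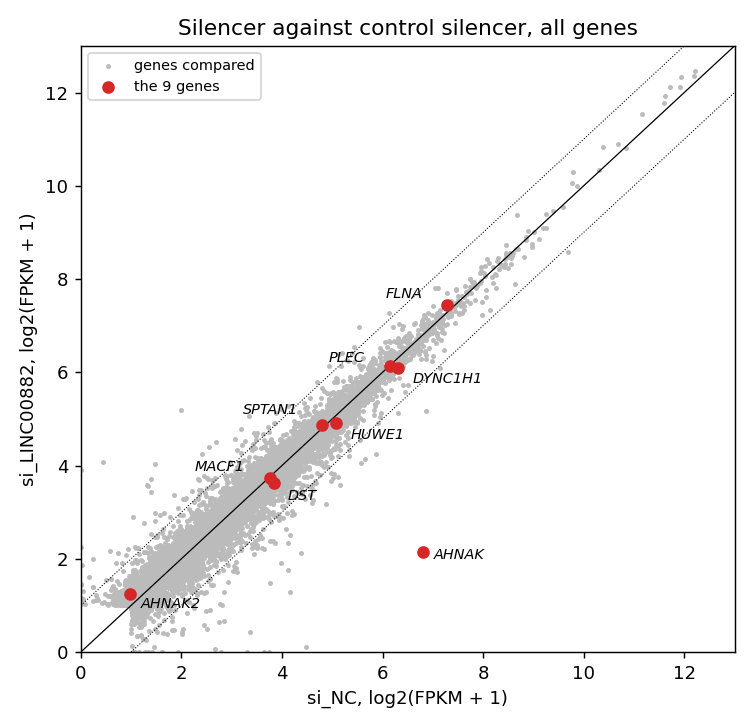
Levels of 10478 genes in si_NC (x axis) and si_LINC00882 (y axis), both as log2(FPKM + 1), with the 9 genes in red, the line of equal levels solid and the 2-fold lines dotted. Of the 9, AHNAK alone lies outside the dotted lines, at a log2 ratio of -4.66.

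The listed genes nearest to AHNAK on its chromosome were at similar levels in both transfected libraries. The neighbours compared on its sides, FTH1, INCENP, EEF1G, TUT1 and MTA2, had log2 ratios from -0.17 (TUT1) to 0.21 (INCENP). INCENP, a subunit of the chromosomal passenger complex, was listed at 17.5 FPKM and 20.4 FPKM. No other gene listed in the tables overlaps the span of AHNAK in RefSeq. Among the other members only SPTAN1 overlaps a listed gene, WDR34, so the split of fragments between those 2 is uncertain. How gene values were summed over transcripts, such as the short and the giant AHNAK transcripts, was not tested, since only gene values were at hand.

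The known partners of AHNAK did not share its difference. ANXA2 was listed at 119.5 and 121 FPKM in si_NC and si_LINC00882 (log2 ratio 0.02), and S100A10 at 225 and 246 FPKM (log2 ratio 0.13). The ferlins DYSF (5.98 and 6.83 FPKM, log2 ratio 0.17) and MYOF (49.8 and 53.9 FPKM, log2 ratio 0.11), membrane repair proteins, were also near equal. PRX, whose protein carries a PDZ domain like that of AHNAK, was under 1 FPKM in all 4 libraries.

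Both control libraries, input and si_NC, had neither a knockdown nor a pulldown, and yet the giant genes differed between them. AHNAK stood at 6.38 FPKM in input against 111 FPKM in si_NC, 17.4-fold lower, with a log2 ratio of -3.92. DYNC1H1 was 12.1-fold lower in input (6.51 against 78.5 FPKM, log2 ratio -3.40) and PLEC 11.2-fold lower (6.24 against 69.8 FPKM, log2 ratio -3.29). These were 3 of the 37 lowest log2 ratios among 10511 genes. AHNAK drew attention through a comparison that shares its si_NC value, so its ratio here is a description.

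HUWE1 was at 4.02 FPKM in input, 8.15-fold below si_NC, and FLNA at 20.99 FPKM, 7.37-fold below. MACF1 (2.49 FPKM in input) was 5.05-fold lower, DST (3.10 FPKM) 4.27-fold and SPTAN1 (6.86 FPKM) 3.91-fold. AHNAK2, under 1 FPKM in both and so not compared, was at 0.278 FPKM in input and 0.973 FPKM in si_NC.

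All 8 members compared were at or past 2-fold lower in input, with log2 ratios from -3.92 to -1.80. Over all genes 19.2% were 2-fold lower and 5.95% higher, in numbers 2015 and 625, or 1244 and 1189 once the ratios were centred on their median. The member median was -2.79 and that of all genes -0.29. Without AHNAK the member median was -2.75, with 7 of 7 at or past 2-fold lower. AHNAK in si_LINC00882, at 3.43 FPKM, was the one member value of a transfected library that lay below its input value. The other 8 members were all higher in si_LINC00882 than in input, 7 of them at or past 2-fold, where 19.1% of all genes were. Input and si_NC come from different preparations and from tables with different gene filters, so preparation and culture cannot be told apart. The mitochondrial share was also highest in input. With mitochondrial genes left out of the scaling AHNAK stood at -3.95 and the member median at -2.81.

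**Figure D3:**
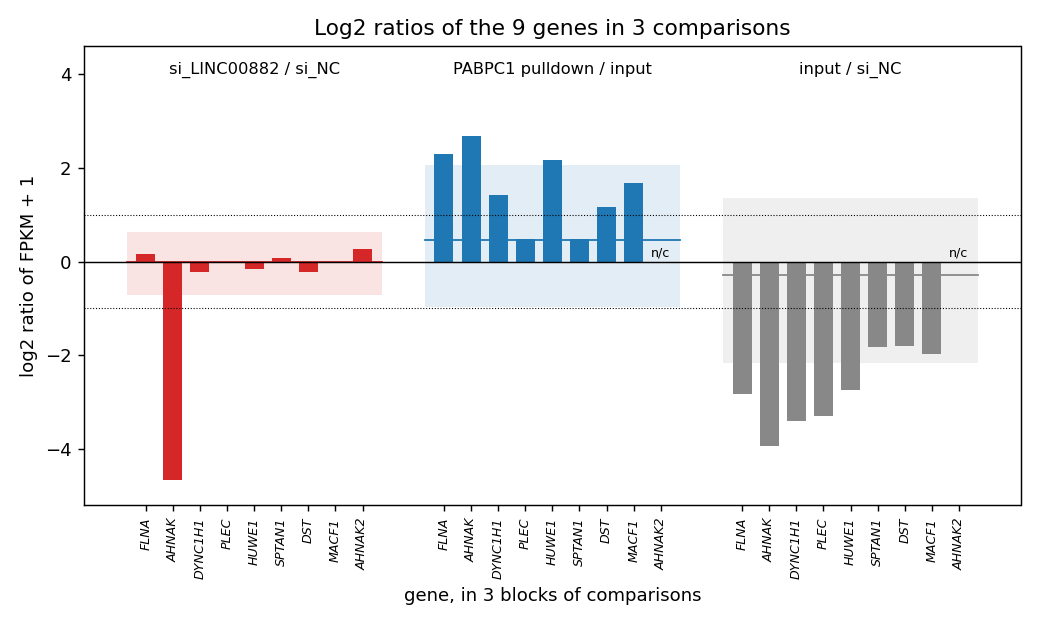
Log2 ratio of FPKM + 1 for each of the 9 genes in 3 comparisons (bars), with the central 95% of all genes shaded, their median as a coloured line, 2-fold lines dotted and n/c for genes under 1 FPKM in both libraries. AHNAK has the only long bar in the silencer block, while 8 of 8 bars in the block of input over si_NC reach past -1. The block of the pulldown shares the input library, and the silencer block shares si_NC, with the block of input over si_NC.

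The PABPC1 pulldown held more of these mRNAs than its input, to very different degrees. AHNAK stood at 46.4 FPKM in the pulldown and 6.38 FPKM in input, 7.27-fold higher (log2 ratio 2.68), the 108th highest ratio of 10856 genes. HUWE1 stood at 21.7 and 4.02 FPKM (5.40-fold, log2 ratio 2.18), and FLNA at 106 and 20.99 FPKM (5.06-fold, log2 ratio 2.29). These 3 lay above the central 95% of all genes, which ended at 2.07.

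MACF1 stood at 10.2 FPKM in the pulldown and 2.49 FPKM in input (log2 ratio 1.68), and DYNC1H1 at 19.1 and 6.51 FPKM (log2 ratio 1.42). DST stood at 8.22 and 3.10 FPKM (log2 ratio 1.169). PLEC at 9.04 and 6.24 FPKM (log2 ratio 0.47) and SPTAN1 at 10.03 and 6.86 FPKM (log2 ratio 0.49) sat at the median of all genes, 0.47. Thus 6 of the 8 members compared were at or past 2-fold higher, and none lower, with 19.6% of all genes higher and 2.37% lower, in numbers 2124 and 257. Centring on the median ratio made these 802 and 831. Centred in this way, DYNC1H1 (0.96) and DST (0.70) no longer reached 2-fold.

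Set against si_NC instead of its own input, the pulldown held less of every member compared. PLEC was at 9.04 FPKM in the pulldown and 69.8 FPKM in si_NC (log2 ratio -2.82, the 7th lowest of 10810 genes), and DYNC1H1 at 19.1 and 78.5 FPKM (-1.98). SPTAN1 (-1.33) and AHNAK (-1.24) were 2-fold lower as well, which 2.48% of all genes were. DST (-0.63), HUWE1 (-0.57), FLNA (-0.54) and MACF1 (-0.28) lay closer to si_NC. So whether a member counted as high in the pulldown depended on which control it was set against, and these comparisons share the pulldown library.

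Other genes for very large proteins served as the nearest comparison, as a list of 90 written by name without the members. In the knockdown pair their median log2 ratio was -0.06 over 81 genes, none was 2-fold higher and 1 lower. Over all genes the median was -0.01, with 0.859% higher and 1.15% lower. Among those of at least 5 FPKM the lowest included MYCBP2 (-0.37), MDN1 (-0.34), MTOR (-0.31), ASPM (-0.29) and VPS13A (-0.26). The highest included FLNC (0.22), KMT2C (0.20), SRCAP (0.18) and NOTCH1 (0.17). AHNAK had the lowest ratio of all 10478 genes compared in this pair. That it lay below every gene of the list was therefore given in advance, and nothing is read from it.

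In input over si_NC the same list had a median of -1.41 over 80 genes, with 61 at or past 2-fold lower and none higher. Over all genes the median was -0.29, with 19.2% lower and 5.95% higher. For 29 of the 80 the input value was under 1 FPKM, and among the 51 at 1 FPKM or more in both libraries 39 were 2-fold lower (median -1.41). Among genes of the list reaching 5 FPKM in one or both libraries, the lowest included ITPR3, a calcium release channel, at 5.21 FPKM in input and 47.1 FPKM in si_NC (log2 ratio -2.95), and the mechanosensitive channel PIEZO1 at 1.60 and 18.3 FPKM (-2.89). The collagens COL7A1 (0.678 and 10.04 FPKM, -2.72) and COL12A1 (4.26 and 28.5 FPKM, -2.49) were also among the lowest. At the other end, under the same minimum, the kinetochore motor CENPE stood at 22.4 and 19.4 FPKM (0.20), AKAP9 at 8.24 and 8.48 FPKM (-0.04) and BPTF at 5.14 and 5.91 FPKM (-0.17). GOLGB1 (-0.26) and CENPF (-0.65) also stayed within 2-fold.

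In the pulldown over input the list's median was 0.99 over 81 genes, with 40 at or past 2-fold higher and 2 lower. Over all genes the median was 0.47, with 19.6% higher and 2.37% lower. Of the list's 81 genes, 30 were compared only through the pulldown, and among the 51 at 1 FPKM or more in both, 26 were higher and 2 lower (median 1.02). Among genes of the list reaching 5 FPKM in one or both libraries, the highest were COL7A1 (2.24), PIEZO1 (2.22), ITPR3 (2.20), KMT2A (1.96) and HTT (1.96), all below AHNAK on this scale. In plain FPKM, COL7A1 (10.3-fold, 0.678 FPKM in input) and HTT (7.49-fold, 0.806 FPKM) stood above AHNAK (7.27-fold). PIEZO1 (6.95-fold), KMT2A (5.62-fold) and ITPR3 (5.29-fold) stood below AHNAK. Genes left out by that minimum also stood above AHNAK in plain FPKM, such as ATM (17.2-fold, 0.285 FPKM in input). The lowest under the same minimum were CENPE (7.75 FPKM in the pulldown and 22.4 FPKM in input, -1.42), AKAP9 (3.26 and 8.24 FPKM, -1.12), CENPF (-0.43), GOLGB1 (-0.41) and BPTF (-0.13). This comparison and that of input over si_NC share the input library.

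**Figure D4:**
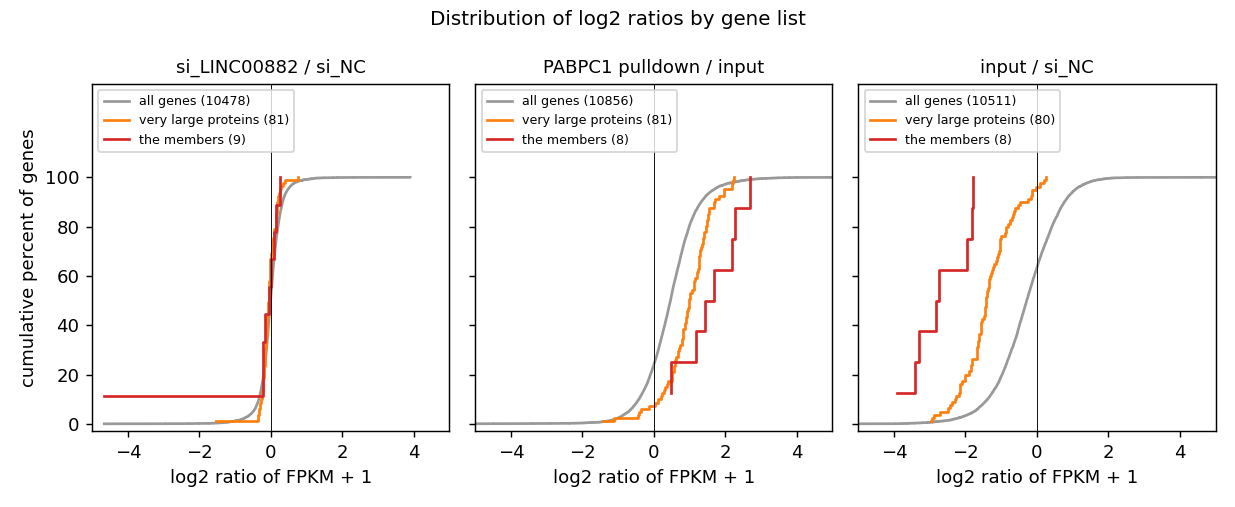
Cumulative percent of genes (y axis) by log2 ratio of FPKM + 1 (x axis) in 3 comparisons, for all genes compared (grey), the list of very large proteins (orange) and the members (red). Ratios past 5 in either direction lie outside the frame. The curves lie close together for the silencer pair apart from AHNAK, while in input over si_NC the medians are -0.29, -1.41 and -2.79 in that order.

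The members' own families showed how far their values were shared. Among the plakins, desmoplakin (DSP) was listed at 19.3 and 21.4 FPKM in si_NC and si_LINC00882 (log2 ratio 0.14). Envoplakin (EVPL), a plakin of stratified epithelia, was the one plakin past 2-fold in this pair, at 4.46 and 12.7 FPKM (log2 ratio 1.32). Over all genes 0.859% were 2-fold higher in this pair. In the pulldown pair EVPL (1.09 FPKM against 1.75 in input, log2 ratio -0.40) and DSP (9.43 against 7.01 FPKM, 0.38) lay below MACF1 and DST. PPL and EPPK1 were not listed under these symbols.

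FLNC, another filamin, stood at 53.0 FPKM in si_NC, 61.9 in si_LINC00882, 14.4 in input and 37.4 in the pulldown. Like FLNA it was lowest in input, and its log2 ratio of 1.32 in the pulldown over input was past 2-fold but lower than that of FLNA. The actin crosslinker ACTN4 differed from these, with 131 FPKM in si_NC, 223 in si_LINC00882, 158 in input and 165 in the pulldown. ACTN1 was at 18.5 FPKM in input and 71.4 in si_NC (log2 ratio -1.89), and UTRN (-1.28) and SYNE2 (-1.56) were 2-fold lower in input as well.

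For the spectrin skeleton, SPTBN1, the beta partner of SPTAN1, stood at 30.9 FPKM in si_NC, 31.0 in si_LINC00882, 5.39 in input and 11.05 in the pulldown. Its level was thus close to that of SPTAN1 in every library. The smaller adducins did not share the low input level, ADD1 standing at 8.95 FPKM in input and 9.25 in si_NC and ADD3 at 9.498 and 9.20. None of the 8 genes of this list compared in the knockdown pair was past 2-fold in either direction, and none of 8 in the pulldown pair. Over all genes 0.859% were 2-fold higher and 1.15% lower in the knockdown pair. In the pulldown pair 19.6% were higher and 2.37% lower. With so few genes, little can be read from these counts.

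The dynein list set giant genes beside smaller ones. In input over si_NC, DYNC1H1 (-3.40) and DCTN1 (4.35 and 18.6 FPKM, -1.87), the largest dynactin subunit, were 2-fold lower. DYNC2H1, also among the very large proteins, was not (0.689 and 1.33 FPKM, -0.47), nor was it past 2-fold in the pulldown pair (0.81). At such low levels the pseudocount shrinks the ratio. In plain FPKM the pulldown was 2.83-fold over input for DYNC2H1 and 2.94-fold for DYNC1H1. The light chain genes stood on the other side, from DYNLL2 (0.19) to DYNLRB1 at 105 and 49.6 FPKM (1.06). Between them were DYNLL1 at 75.9 and 40.8 FPKM (0.88) and DYNLT3 at 37.2 and 20.6 FPKM (0.82). The intermediate chain gene DYNC1I2 was at 27.3 and 27.6 FPKM (-0.01). In the pulldown pair DYNC1H1 (1.42) and DCTN1 (1.36) were the 2 of 16 past 2-fold, and DYNLL1 was at -0.56 and DYNLRB1 at -0.21. Over all genes 19.6% were 2-fold higher and 2.37% lower in that pair. The list median was 0.06, below the 0.47 of all genes. In the knockdown pair 1 of 16 was past 2-fold, DCTN4, a dynactin subunit (4.27 FPKM in si_NC and 10.1 in si_LINC00882, 1.07). Over all genes 0.859% were 2-fold higher and 1.15% lower there.

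The giant ubiquitin ligases, like HUWE1, were low in input. All 11, HUWE1 included, were at or past 2-fold lower in input than in si_NC, from TRIP12 (-1.07) to HUWE1 (-2.75), with UBR4 at 1.71 and 10.5 FPKM (-2.09) and RNF213 at 0.887 and 6.68 FPKM (-2.03), where 19.2% of all genes were 2-fold lower. In the pulldown over input 8 of 11 were 2-fold higher, among them RNF213 at 1.82, UBR4 at 1.51, HERC2 at 1.46, HECTD4 at 1.303, HERC1 at 1.23 and BIRC6 at 1.14 after HUWE1 at 2.18, where 19.6% of all genes were 2-fold higher. MYCBP2 (0.92) and TRIP12 (0.63) were not. RNF213, HERC1 (0.467 FPKM) and HECTD4 (0.168 FPKM) were under 1 FPKM in input. They thus entered these comparisons only through si_NC or the pulldown, where they were higher. None reached 2-fold in the knockdown pair, where the list ran from -0.37 to 0.15. Over all genes 0.859% were 2-fold higher and 1.15% lower in that pair.

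Among mRNAs of proteins that HUWE1 is known to ubiquitylate, MCL1 was at 84.2 FPKM with the control silencer and 72.9 FPKM with the LINC00882 silencer (log2 ratio -0.20). CDC6 was at 18.7 and 16.97 FPKM (-0.14), POLB at 3.74 and 2.998 FPKM (-0.25) and MYC at 2.79 and 2.91 FPKM (0.04). In the pulldown over input MYC was past 2-fold higher (21.1 and 9.95 FPKM, 1.01). The filament and integrin partners of plectin, VIM, KRT8, KRT18, ITGA6 and ITGB4, lay between -0.39 and 0.17 in the knockdown pair. VIM, vimentin, was lower in the pulldown (155 FPKM) than in input (367 FPKM, log2 ratio -1.24), as was S100A10 (274 and 553 FPKM, -1.01), whereas DYSF was higher (6.83 and 2.22 FPKM, 1.28).

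The genes whose values over the 4 libraries were most like those of AHNAK were not other giant genes. Likeness was the Euclidean distance between log2(FPKM + 1) values centred per gene, over 4 libraries and 7403 other genes of at least 5 FPKM in some library. Of the 10 nearest, 3 are readthrough genes, which span 2 neighbouring genes (PTGES3L-AARSD1 at a distance of 0.82, C7orf55-LUC7L2 at 1.03 and C15orf38-AP3S2 at 1.76), and 3 carry only clone names. The other 4 were FBXO34 (1.90), SPIN1 (1.90), DAG1 (2.20) and CALU (2.34). PTGES3L-AARSD1 and C7orf55-LUC7L2 were at 0 FPKM in both input and si_LINC00882. C15orf38-AP3S2 and the 3 clone names were under 1 FPKM in both, whereas AHNAK was at 6.38 and 3.43 FPKM. The readthrough genes overlap listed genes by construction, and FBXO34 overlaps ATG14, so their values depend on how fragments were divided. SPIN1, DAG1 and CALU overlap no listed gene in RefSeq.

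CALU, an abundant gene of the secretory pathway, came closest to AHNAK in level, at 115 FPKM in si_NC, 34.9 FPKM in si_LINC00882, 58.9 FPKM in the pulldown and 11.1 FPKM in input. Dystroglycan (DAG1) stood at 16.5, 2.36, 26.3 and 7.96 FPKM in that order. The nearest member was DST, in place 854 at a distance of 3.43, before MACF1 (3.45) and HUWE1 (3.47), and PLEC was the farthest at 4.59. With only 4 libraries this likeness is a description. AHNAK was singled out by its low ratio in the knockdown pair, which the other members did not share. Their distance from AHNAK therefore follows in part from that choice.

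**Figure D5:**
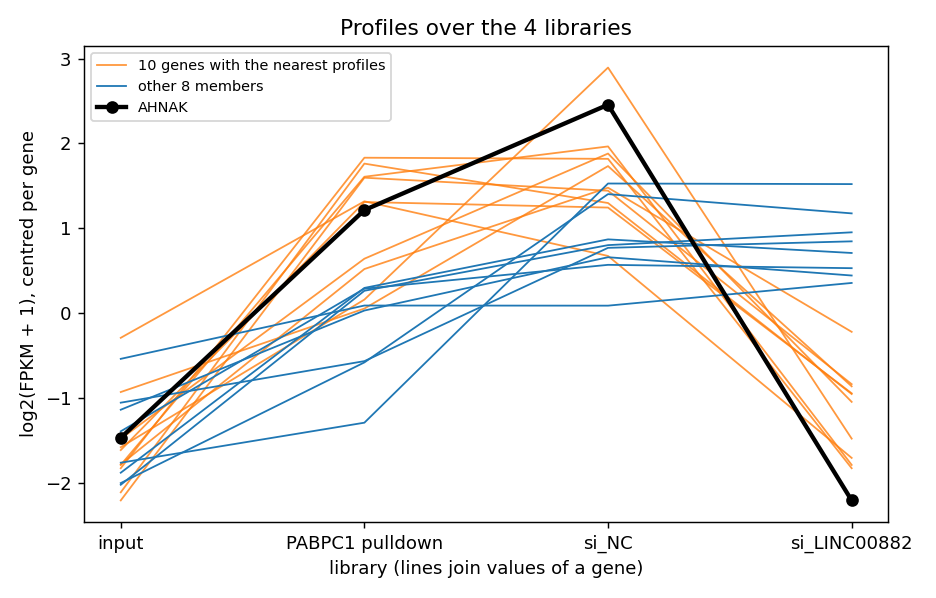
Log2(FPKM + 1) centred on each gene's own mean (y axis) in the 4 libraries (x axis), for AHNAK (black), the 10 genes with the nearest profiles (orange) and the other 8 members (blue). AHNAK and its neighbours in profile lie below their own means in input and in si_LINC00882, while from si_NC to si_LINC00882 the blue lines move by -0.23 to 0.27. The neighbours were chosen for nearness to AHNAK in these same values, so their shared positions follow from the choice.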

How the data were processed

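Gene levels were deposited by the authors in FPKM, with each library in a file of its own, per the file headers. The submitters' processing notes name StringTie 1.3.3, HISAT2 2.1.0, cutadapt 1.17, FastQC 0.11.7 and GRCh37, without their roles. Annotation, library selection and depth are not stated there, and intervals or detection limits were therefore left out. Libraries were grouped by their treatment labels.

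Values were compared as log2 ratios of FPKM plus 1, for genes that reached 1 FPKM in one of both libraries, over the whole table. Differences of at least 2-fold on that scale were counted. The scale understates changes of low genes. Members, gene lists and naming rules were chosen with earlier results of these data known. Named genes were all members, list genes past 2-fold plus up to 4 of the highest level per list, the 5 highest and 5 lowest large-protein genes of at least 5 FPKM, and the 10 nearest profiles to AHNAK. A few genes that these rules name are not reported here. The ratio and profile steps were run on simulated libraries with little spread, planted changes larger than 2-fold and a scaled copy of AHNAK. That run checks the code and does not measure error in these libraries. RefSeq served for names, overlaps and start regions. Scripts ran in Python 3.11.15 with pandas 2.3.3, numpy 2.4.6 and, for figures, matplotlib 3.10.9.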

Additional observations from a re-analysis of the deposited data

How the results depend on the processing

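Pseudocounts of 0.1 and 5, no minimum or 5 FPKM, centring, and rescaling without mitochondrial genes left AHNAK between -4.98 and -3.78 in the knockdown pair, 2.18 and 2.84 in the pulldown pair and -4.10 and -3.35 in input over si_NC. Among other members, these settings took DST (0.71 with a pseudocount of 5, 0.70 centred) and DYNC1H1 (0.96 centred) below 2-fold in the pulldown pair.

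With the control library of the other pair, 7 of 9 members were past 2-fold in si_LINC00882, all higher, and the member median turned to 1.92 there and to -0.93 in the pulldown. In si_LINC00882 over input, AHNAK was at -0.74, DST at 1.58, DYNC1H1 at 3.18, HUWE1 at 2.59, MACF1 at 1.92 and PLEC at 3.28. In the pulldown over si_NC, AHNAK was at -1.24, DST at -0.63, DYNC1H1 at -1.98, FLNA at -0.54, HUWE1 at -0.57, MACF1 at -0.28, PLEC at -2.82 and SPTAN1 at -1.33. The large-protein medians became 1.40 and -0.39. The cause was not tested.

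The large-protein median was 1.55 with a pseudocount of 0.1 and 1.25 with a minimum of 5 FPKM in the pulldown pair, and -0.74 with a pseudocount of 5 in input over si_NC. Genes past the size rule numbered 211 in the knockdown pair, 713 at 1.5-fold, 50 at 3-fold, 361 and 56 with pseudocounts of 0.1 and 5, and 2634 over input. In the pulldown pair they numbered 2381, and 5298, 706, 3656, 751 and 1042 in the same order, the last over si_NC. In input over si_NC they numbered 2640, 5256 at 1.5-fold, 888 at 3-fold and 964 with a pseudocount of 5. Centred, the pulldown pair held 802 genes higher and 831 lower, and input over si_NC 1189 and 1244.

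A minimum on protein length was not run, as no table of protein lengths was used here, and the list by name, the comparison of both controls and its settings were chosen after seeing the data. No paired analysis was possible because each group was 1 library.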
